A study of Mus musculus with 4 samples.

Results

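Fos, Fosb, Jun, Junb, Jund, Egr1, Nr4a1, Atf3, Klf6 and Ier2, 10 immediate early genes, were followed across marker-gated cell classes of the mouse heart by CITE-seq, an assay that counts the RNA of single cells along with bound antibodies that carry DNA barcodes. They were picked by symbol, and all 10 were found among the 32285 genes of both matrices. There were 2 libraries, 1 from the pooled hearts of 4 C57BL6J mice that had received a rat IgG isotype antibody and 1 from those of 4 that had received an agonist antibody against CD40, a receptor of the tumour necrosis factor family carried by B cells, dendritic cells and macrophages. Per the labels' protocols, hearts were perfused with cold buffer, freed of atria and digested for 20 min at 37 °C in collagenase, hyaluronidase and DNase, and cells were sorted without DAPI. The titles and protocols name CD45 as the gate and the series description names DRAQ5. Age, sex, antibody dose and time after injection were not given in the sources used here. With 1 library per treatment there was no replicate and no test: intervals are 95% intervals of the counting error, and the spread between mice or between digestions is not in them.

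Immediate early genes are transcribed within minutes of a stimulus from factors already present in the cell, without new protein synthesis, and their transcripts are short-lived. Serum response factor with its ETS partners and the cAMP response element binding protein, both reached by mitogen-activated protein kinases, are the best known activators. The Fos and Jun proteins pair through leucine zippers into the dimer AP-1, which binds DNA and drives later genes. In solid tissue, warm enzymatic digestion is a known inducer of these genes, so that a level in digested cells holds the state of the cell in the animal and its response to preparation. No undigested sample was analysed here, so the 2 cannot be told apart in any value that follows.

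Promoter sequences from RefSeq (GRCm38.p6) were on hand for 8 of the 10 genes, all but Egr1 and Ier2. The 250 bases before the transcription start are shown for 4 genes, chosen after their matches were seen because they hold TGACG, the core of the element bound by cAMP response element binding protein and ATF proteins. They cover chr12:85473640-85473889 on the plus strand for Fos, chr8:84978749-84978998 on the minus strand for Junb, chr15:101266596-101266845 on the plus strand for Nr4a1, chr1:191183334-191183583 on the minus strand for Atf3. Capitals mark TGACG or its reverse complement CGTCA, and each sequence runs 5′ to 3′ towards the gene.
Fos: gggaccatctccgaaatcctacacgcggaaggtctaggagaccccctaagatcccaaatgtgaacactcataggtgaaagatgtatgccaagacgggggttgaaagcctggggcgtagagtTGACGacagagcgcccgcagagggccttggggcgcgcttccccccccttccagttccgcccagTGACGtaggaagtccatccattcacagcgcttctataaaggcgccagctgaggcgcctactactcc
Junb: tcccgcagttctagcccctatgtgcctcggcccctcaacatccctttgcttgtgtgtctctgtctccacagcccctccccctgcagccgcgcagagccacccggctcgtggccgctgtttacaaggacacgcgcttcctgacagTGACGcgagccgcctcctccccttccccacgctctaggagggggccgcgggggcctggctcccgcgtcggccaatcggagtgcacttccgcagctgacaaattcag
Nr4a1: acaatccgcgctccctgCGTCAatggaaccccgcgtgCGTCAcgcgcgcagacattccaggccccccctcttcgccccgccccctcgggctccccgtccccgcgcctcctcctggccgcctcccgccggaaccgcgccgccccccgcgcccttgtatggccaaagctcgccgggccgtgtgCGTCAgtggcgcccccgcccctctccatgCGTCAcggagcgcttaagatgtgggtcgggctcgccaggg
Atf3: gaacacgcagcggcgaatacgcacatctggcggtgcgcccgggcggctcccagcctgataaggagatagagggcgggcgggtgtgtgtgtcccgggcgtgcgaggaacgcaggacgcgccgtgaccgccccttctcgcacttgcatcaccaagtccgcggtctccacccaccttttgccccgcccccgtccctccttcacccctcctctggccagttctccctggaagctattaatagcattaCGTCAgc
The TGACG core, on either strand, lay in the promoters of 5 of the 8 genes (Atf3, Fos, Fosb, Junb and Nr4a1), against 19.8% of the 27025 genes with a promoter of the same length. Nr4a1 held 4 such cores and Fos held 2, the nearer with its first base at position -66 from the start. The Atf3 core began at position -7 and the Junb core at position -106. The full element TGACGTCA, which contains the core, was in 0 of the 8 and in 1.77% of all genes. The AP-1 motif TGACTCA was in 0 of the 8 (5.16% of all genes), the CArG box of serum response factor in 0 (1.62%), and the GC box GGGCGG in 6 (35.4%). These are matches of letters in a short window and say nothing of binding. Sites outside these 250 bases, and all those of Egr1 and Ier2, were not searched. A count of 0 thus does not mean that a gene lacks the motif.

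The isotype library held 4908 barcodes and the anti-CD40 library 7087, of which 2558 and 4278 had at least 200 genes and under 10% mitochondrial UMIs and were kept, with medians of 5446 and 8285 UMIs (unique molecular identifiers, each standing for 1 captured transcript). The libraries shared 13 barcodes, 6 of them among kept cells. A cell was gated into a class when at least a 50% share of 1 marker list, and of no other, had a UMI. Cells with both macrophage and classical monocyte markers formed a class of their own. No list was reached by 18.2% and 18.5% of kept cells, and several lists by 24.6% and 20.1%. A gate is a range of marker counts and not a cell type: 12.2% and 10.8% of macrophage-gated cells sat at the minimum of 5 of 9 markers. Ptprc, which encodes CD45, had a UMI in 84.6% and 91.6% of kept cells, but in only 29.4% and 19.6% of fibroblast-gated and 12.9% and 18.8% of endothelial-gated cells. Levels are in CPM, the UMIs of a gene scaled to the same total of UMIs over all genes in every class and library.

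In macrophage-gated cells (573 isotype, 1430 anti-CD40) all 10 genes were lower in the anti-CD40 library, by 1.53-fold for Klf6 to 4.57-fold for Nr4a1. Counted past 1.5-fold, 10 of 10 were lower, against 18.8% of the 10070 genes with at least 30 UMIs in the library where they were higher. These cells summed to 4515470 UMIs in the isotype and 15359331 UMIs in the anti-CD40 library. The minimum therefore let in weaker genes when they were higher in the anti-CD40 library. Among all genes with a UMI in this class, 30.4% were lower and 20.5% higher. The median log2 ratio, with 10 CPM added to both levels, was -1.26 for the 10 genes and -0.07 for all genes tested. Under TMM scaling, which moved every log2 ratio in these cells up by 0.23, 9 of 10 were past 1.5-fold, all but Klf6, against 11.3% of genes.

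The Fos family supplies the partners of Jun in AP-1. Fos was at 1604 CPM (1567 to 1641) in isotype macrophage-gated cells and 819 CPM (805 to 833) in anti-CD40 cells, 1.96-fold lower (1.90 to 2.02). Fosb, whose splice forms include the long-lived ΔFosB, was at 575 CPM (553 to 597) and 188 CPM (182 to 195), 3.05-fold lower (2.89 to 3.22). The 2 genes thus differed in the size of their ratio by more than counting error, Fosb having the larger.

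Among the Jun genes, Jun, the main transactivating subunit, was at 2317 CPM (2273 to 2362) in isotype and 936 CPM (921 to 951) in anti-CD40 macrophage-gated cells, 2.47-fold lower (2.41 to 2.54). Junb, which can oppose Jun at some promoters, had 1123 CPM (1092 to 1154) in isotype and 487 CPM (476 to 498) in anti-CD40 cells, a level lower by 2.31-fold (2.22 to 2.39). Jund, which most cells express at rest, had 1577 CPM (1541 to 1614) and 671 CPM (658 to 684), lower by 2.35-fold (2.28 to 2.42). The intervals of the Junb and Jund ratios overlapped, so these 2 ratios could not be separated.

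Egr1, a zinc finger factor and a classical readout of ERK signalling, was at 814 CPM (788 to 841) in isotype macrophage-gated cells and 235 CPM (227 to 243) in anti-CD40 cells, 3.47-fold lower (3.31 to 3.63). Nr4a1, an orphan nuclear receptor also known as Nur77, was low in this class, at 50.3 CPM (43.9 to 57.3) and 11.003 CPM (9.41 to 12.8), 4.57-fold lower (3.73 to 5.61) on 227 and 169 UMIs. Ier2, a small nuclear protein of the early response, had 498 CPM (478 to 519) and 153 CPM (147 to 160), lower by 3.25-fold (3.07 to 3.44). These 3 genes and Fosb had the largest ratios.

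Atf3, a stress-induced bZIP factor that can repress inflammatory genes, was at 259 CPM (245 to 275) and 134 CPM (128 to 140), 1.94-fold lower (1.80 to 2.08). Klf6, a zinc finger factor expressed in macrophages at rest and on activation, was at 1142 CPM (1111 to 1173) and 747 CPM (733 to 760), 1.53-fold lower (1.48 to 1.58). Klf6 was the member nearest to the fold used for counting, with an interval on both sides of it.

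Other values also differed between the macrophage-gated cells of the 2 libraries. The 9 macrophage markers summed to 9492 CPM in isotype and 9131 CPM in anti-CD40 cells. The 9 B cell markers, all detected in both libraries, summed to 535 and 239 CPM, and the 8 classical monocyte markers, all detected, to 1144 and 736 CPM. The 9 neutrophil markers went the other way, at 82.4 CPM with 1 marker at 0 and at 292 CPM with 0 at 0. The median depth was 6925 and 9322 UMIs and the median mitochondrial share 4.16% and 4.48%. The part of these other-cell transcripts in the member ratios was not tested.

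Depth and mitochondrial share were held within bins, a split added after the data were seen. In 4 bins of mitochondrial share, the summed level of the 10 genes was 9291 to 10928 CPM in isotype and 4172 to 4943 CPM in anti-CD40 macrophage-gated cells, 2.21- to 2.44-fold lower. In 4 bins of UMIs per cell the summed ratio ran from 1.72-fold (1.61 to 1.85) under 3000 UMIs to 2.46-fold (2.42 to 2.51) between 6000 and 12000. All 10 genes were lower in each of the 8 bins. In rising order of mitochondrial share, 9, 9, 10 and 10 of 10 measured were past 1.5-fold lower, against 10.9%, 18.0%, 16.0% and 14.7% of all genes. In rising order of depth, 7 of 9, 7 of 9, 10 of 10 and 9 of 10 were, against 18.5%, 12.6%, 16.8% and 15.3%. Within each library the summed level was highest in the shallowest cells, 12830 CPM in isotype and 7448 CPM in anti-CD40 cells under 3000 UMIs, and lowest in those of 12000 UMIs or more, 8230 and 4083 CPM.

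**Figure D1:**
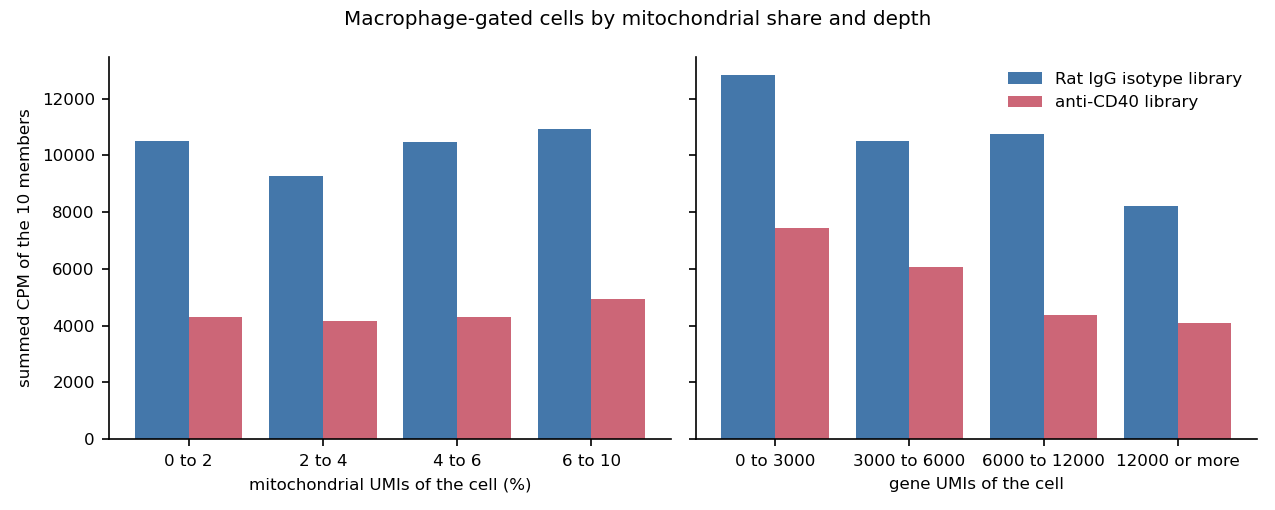
Summed CPM of the 10 immediate early genes (bars, from 0) in macrophage-gated cells, by the mitochondrial share of the cell (left) and its gene UMIs (right), for the isotype (blue) and anti-CD40 (red) libraries. The anti-CD40 bar is lower in all 8 bins, by 1.72- to 2.46-fold.

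Macrophage-gated cells were also split, after the data were seen, by UMIs of Timd4, Lyve1 or Folr2, markers of resident heart macrophages, and of Ccr2, the chemokine receptor of monocyte-derived cells. Cells with a resident marker and no Ccr2 made up 49.4% of the isotype and 37.9% of the anti-CD40 cells, and cells with Ccr2 alone 14.0% and 26.9%. Within the resident-marked cells Egr1 was at 771 and 269 CPM and Nr4a1 at 48.1 and 7.24 CPM. Within the Ccr2 cells Egr1 was at 710 and 139 CPM and Nr4a1 at 76.0 and 13.5 CPM. Cells with neither made up 30.4% and 23.5%, with Egr1 at 977 and 306 CPM and Nr4a1 at 25.0 and 13.1 CPM, 1.91-fold lower (1.09 to 3.32). Cells with both made up 6.28% and 11.7%, with Nr4a1 at 63.5 and 13.1 CPM. The split was made without thinning, and a marker is found more often in a deeper cell. Median depth was 5235 and 6349 UMIs in cells with neither and 9858 and 12973 UMIs in cells with both. The part of depth in these shares was not tested. Past 1.5-fold, 9 of 10 genes were lower in the resident-marked cells (17.8% of all genes there), 9 of 10 in the Ccr2 cells (13.8%), 9 of 9 measured in cells with both (9.40%) and 8 of 9 measured in cells with neither (16.0%). Nr4a1 was the gene under the minimum of 30 UMIs in the cells with both and in those with neither. Klf6 was within the fold in all but the cells with both.

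Cells that reached both the macrophage and the classical monocyte list were few in the isotype library (52) and many in the anti-CD40 library (523). The makeup of this class differed between the libraries: the classical monocyte list summed to 5608 CPM in isotype and 2546 CPM in anti-CD40 cells, and the macrophage list to 3319 and 6577 CPM, with a median of 6 and 8 of its 9 markers. The part of this shift in the values that follow was not tested. All 10 genes were past 1.5-fold lower there, against 12.9% of 6891 genes. Their median log2 ratio was -1.34, against 0.12 for all genes tested. This class summed to 729113 UMIs in isotype and 9177635 UMIs in anti-CD40 cells. The minimum of UMIs for a measured gene therefore let in weaker genes when they were higher in the anti-CD40 library. This shapes both background values. With every gene that had a UMI as the background, 22.8% were lower and 35.5% higher. Nr4a1 was at 174 CPM (145 to 207) in isotype and 20.3 CPM (17.5 to 23.4) in anti-CD40 cells, 8.59-fold lower (6.80 to 10.8). In the isotype library Nr4a1 was itself higher in classical monocyte-gated (240 CPM) than in macrophage-gated cells (50.3 CPM). Egr1 had a smaller ratio than in macrophage-gated cells, with 357 and 186 CPM and 1.92-fold lower (1.68 to 2.19).

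Neutrophil-gated cells (137 isotype, 215 anti-CD40) held most of the genes at their highest level. In the isotype library this class ranked first of the 9 classes with at least 20 cells in each library for 9 of 10 genes, Jun being the exception. Junb was at 7545 CPM (7282 to 7815) in isotype neutrophil-gated cells, 5.81 times the next class, and Fos at 6544 CPM (6300 to 6796), 2.79 times the next. Atf3 was at 1430 CPM (1317 to 1551), 3.99 times the next class. Nr4a1, at 1061 CPM, was not separable from nonclassical monocyte-gated cells at 972 CPM (799 to 1171), a cell type whose development depends on this receptor.

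Between the libraries the neutrophil-gated cells divided the family. Past 1.5-fold, 6 of 10 genes were lower in the anti-CD40 library, against 34.1% of 2323 genes. The classical monocyte list summed to 1583 and 5226 CPM and the B cell list to 544 and 127 CPM in these cells, and their part was not tested. Nr4a1 stood at 1061 and 282 CPM (3.76-fold lower, 3.15 to 4.503), Egr1 at 1544 and 450 CPM (3.43-fold, 2.98 to 3.96) and Atf3 at 1430 and 526 CPM (2.72-fold, 2.37 to 3.12). Fosb, Jund and Junb were 2.44-, 2.12- and 2.04-fold lower. Jun, at 1178 CPM (1075 to 1287) and 1135 CPM (1053 to 1221), could not be told from no difference. Fos (6544 and 4891 CPM), Klf6 (2149 and 1523 CPM) and Ier2 (1314 and 915 CPM) were 1.34- to 1.44-fold lower and under the fold used.

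The direction of Fos, Jun and Klf6 and the call of Junb depended on the scaling. The 9 neutrophil markers, S100a8 and S100a9 among them, took up 111520 CPM of the isotype and 176155 CPM of the anti-CD40 neutrophil-gated total, and the part of this in the scaling was not tested. TMM moved every log2 ratio of this class up by 0.41 and the median of ratios by 0.50. Under TMM the log2 ratios of Fos, Klf6 and Ier2 were -0.01, -0.08 and -0.11 and that of Jun was 0.36, and under the median of ratios Fos (0.08) and Jun (0.44) stood above 0 and Klf6 was at 0.00. Nr4a1, Egr1, Atf3, Fosb and Jund were past 1.5-fold lower under both, while Junb (-0.62 under TMM) was within the fold under the median of ratios (-0.53). Of all genes, 34.1% were past 1.5-fold lower and 18.1% higher in CPM, and 15.7% lower and 28.4% higher under TMM, with 6 of the 10 genes lower under TMM and 5 under the median of ratios.

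NK cell-gated cells (114 and 113) were measured for 9 of the 10 genes, and 8 were past 1.5-fold lower in the anti-CD40 library, against 21.5% of 4012 genes. Fos was at 770 CPM (699 to 847) and 324 CPM (288 to 363), 2.38-fold lower (2.05 to 2.77). Nr4a1, which follows antigen receptor signalling in T cells, was at 94.0 and 25.0 CPM, 3.76-fold lower (2.26 to 6.44) on 52 and 23 UMIs. Egr1 stood apart at 90.4 CPM (67.1 to 119) and 101 CPM (81.5 to 124), with overlapping intervals. Under TMM 6 genes were past the fold, against 12.6% of genes. The median depth was 4745 and 7360 UMIs, and 9.65% of isotype and 38.1% of anti-CD40 cells sat at the minimum of 4 markers. The NK list summed to 15443 and 16632 CPM, the B cell list to 343 and 49.95 CPM, the neutrophil list to 88.6 and 324 CPM and the T cell list to 455 and 700.5 CPM. The part of these other-cell markers was not tested.

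Atf3 was nearly absent from NK- and T cell-gated cells. It had 4 UMIs in 114 isotype and 5 UMIs in 113 anti-CD40 NK-gated cells, 7.23 and 5.43 CPM, and 1 UMI in 28 isotype and 10 UMIs in 110 anti-CD40 T cell-gated cells. Thinned to 1000 UMIs, 2.73% of isotype and 0 of 113 anti-CD40 NK-gated cells had an Atf3 UMI, against 65.9% and 30.5% of neutrophil-gated and 16.3% and 10.2% of macrophage-gated cells. The exact upper bound for the 0 of 113 is 3.21%. Free RNA from other cells can also give such UMIs, so an NK share of this size cannot be read as expression.

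The classes with fewer than 50 cells in 1 of the libraries gave wider intervals. Classical monocyte-gated cells (38 and 64) had all 10 genes past 1.5-fold lower, against 18.1% of 2677 genes, with 0 higher against 25.4%. In these cells the classical monocyte list summed to 7108 and 7551 CPM, the neutrophil list to 302 and 1709 CPM, the macrophage list to 1034 and 1533 CPM and the B cell list to 399 and 145 CPM, and their part was not tested. Jun there was at 2925 CPM (2741 to 3118) in isotype, the highest of the 9 classes, and 702 CPM (638 to 771) in anti-CD40 cells, 4.17-fold lower (3.72 to 4.68). Nonclassical monocyte-gated cells (23 and 24) had Nr4a1 at 972 CPM (799 to 1171) and 157 CPM (95.8 to 242), 6.19-fold lower (3.82 to 10.5). The markers of that gate were also lower, at 4894 and 1671 CPM with a median of 7 and 4 of 8 markers, 1 of 23 and 15 of 24 cells sat at the minimum, and the classical monocyte list summed to 1175 and 2055 CPM. Their part was not tested. Fos in the same cells, at 742 and 690 CPM, had overlapping intervals. In all, 3 of the 8 genes tested in them were lower, against 29.8% of 764 genes, a share near that background. In T cell-gated cells (28 and 110) 5 of 8 tested were lower, Jun at 1106 and 606 CPM among them, against 6.63% of 2806 genes. None of the 8 was past the fold higher, against 46.9%. This class summed to 192541 and 770376 UMIs, so the 30-UMI minimum let in weaker genes when they were higher in the anti-CD40 library. With every gene that had a UMI as the background, 26.2% were lower and 40.1% higher. In T cell-gated cells the NK list summed to 187 and 877 CPM and the B cell list to 525 and 58.4 CPM, and their part was not tested.

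Fibroblast-gated cells (34 and 51) differed in direction from the macrophage-gated cells for 5 genes. Their median depth was 14246 UMIs in the isotype and 8266 in the anti-CD40 library, the opposite order to the macrophage-gated cells (6925 and 9322), and its part was not tested. Of the 8 genes tested 0 were past 1.5-fold lower, against 16.0% of 2859 genes, and 3 were higher, against 12.0%. Fos was at 570 CPM (501 to 645) in isotype and 903 CPM (815 to 999) in anti-CD40 cells, a ratio of 1.59 (1.35 to 1.87). Jun was at 1248 CPM (1145 to 1358) and 1913 CPM (1784 to 2049), a ratio of 1.53 (1.37 to 1.71), and Junb at 475 and 736 CPM, a ratio of 1.55 (1.30 to 1.86). Egr1, at 891 CPM (805 to 985) and 767 CPM (686 to 855), and Jund, at 1586 and 1322 CPM, were 1.16- and 1.199-fold lower. The fibroblast list itself summed to 24895 and 24568 CPM, while the macrophage list summed to 232 and 400 CPM and the neutrophil list to 50.9 and 280 CPM in these cells, and their part was not tested.

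The ratios of Fos, Jun and Junb in fibroblast-gated cells stayed above 1 under every scaling, filter and gate tried. With each cell weighted equally their log2 ratios were 0.41, 0.55 and 0.42, all within 1.5-fold. Fosb, at 516 and 649 CPM, had a log2 ratio of 0.33 that was -0.89 after thinning. Endothelial-gated cells (31 and 48) were divided: of 8 genes tested 2 were past 1.5-fold lower (13.4% of 1314 genes) and 1 higher (28.8%). Egr1 was at 359 CPM (265 to 476) and 107 CPM (70.8 to 154), and Fos at 292 and 148 CPM. Atf3 was at 44.8 CPM (16.5 to 97.6) on 6 UMIs and 122 CPM (83.3 to 172) on 32 UMIs, and was measured only through the library where it was higher. The macrophage list summed to 164 and 476 CPM and the neutrophil list to 105 and 453 CPM in these cells, and their part was not tested.

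**Figure D2:**
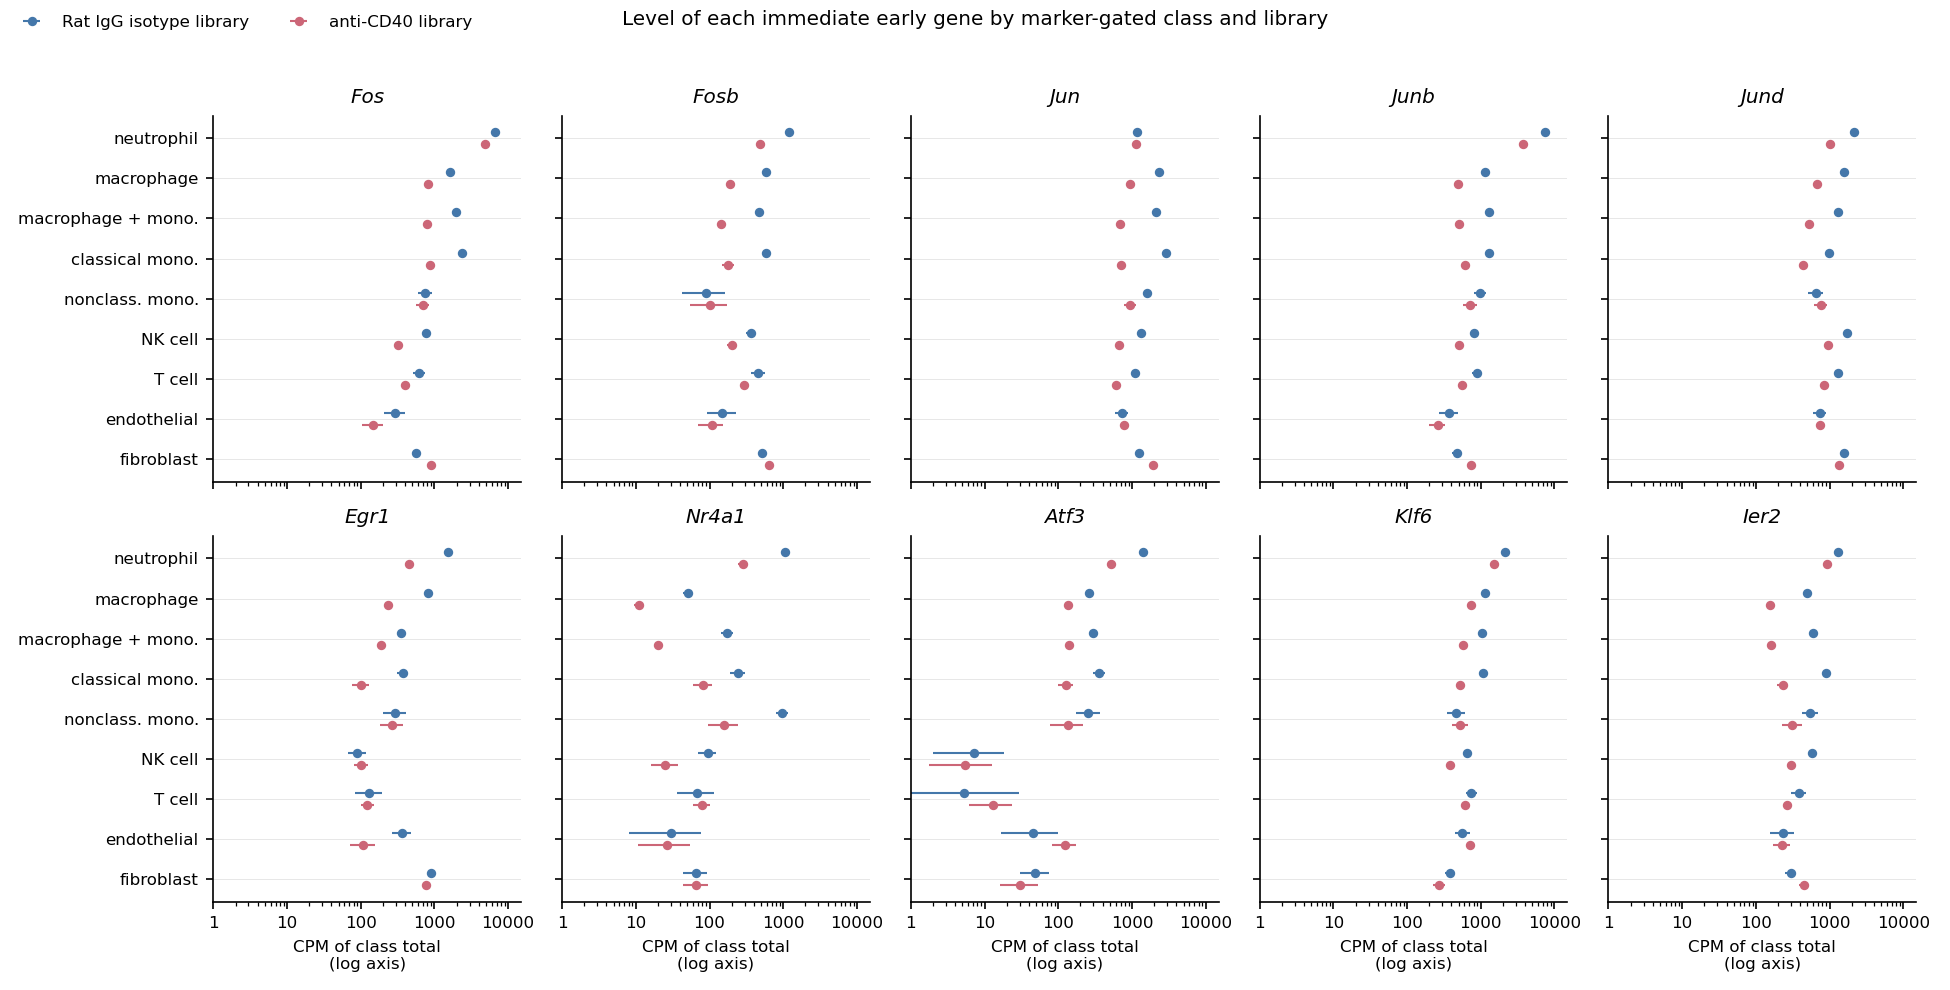
CPM of the class total (log axis) of each immediate early gene in 9 marker-gated classes of the isotype (blue) and anti-CD40 (red) libraries; bars are 95% Poisson intervals, and the bar of Atf3 in isotype T cell-gated cells runs below the axis. Neutrophil-gated cells lie far right for Fos, Junb and Atf3, and blue lies right of red for all 10 genes in macrophage- and classical monocyte-gated cells. In fibroblast-gated cells red lies right of blue for Fos, Fosb, Jun, Junb and Ier2.

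The order of the classes changed with the library. In the anti-CD40 library fibroblast-gated cells ranked first for Fosb (649 CPM), Jun (1913 CPM), Jund (1322 CPM) and Egr1 (767 CPM), each apart from neutrophil-gated cells, which came next. Neutrophil-gated cells remained first for the other 6 genes, Junb at 3695 CPM and Fos at 4891 CPM among them, although Nr4a1 was not apart from nonclassical monocyte-gated cells. Of the 8 pairs of neighbouring classes per gene, 2 to 5 had intervals apart in the isotype library and 1 to 4 in the anti-CD40 library, so most neighbours in the order could not be separated.

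**Figure D3:**
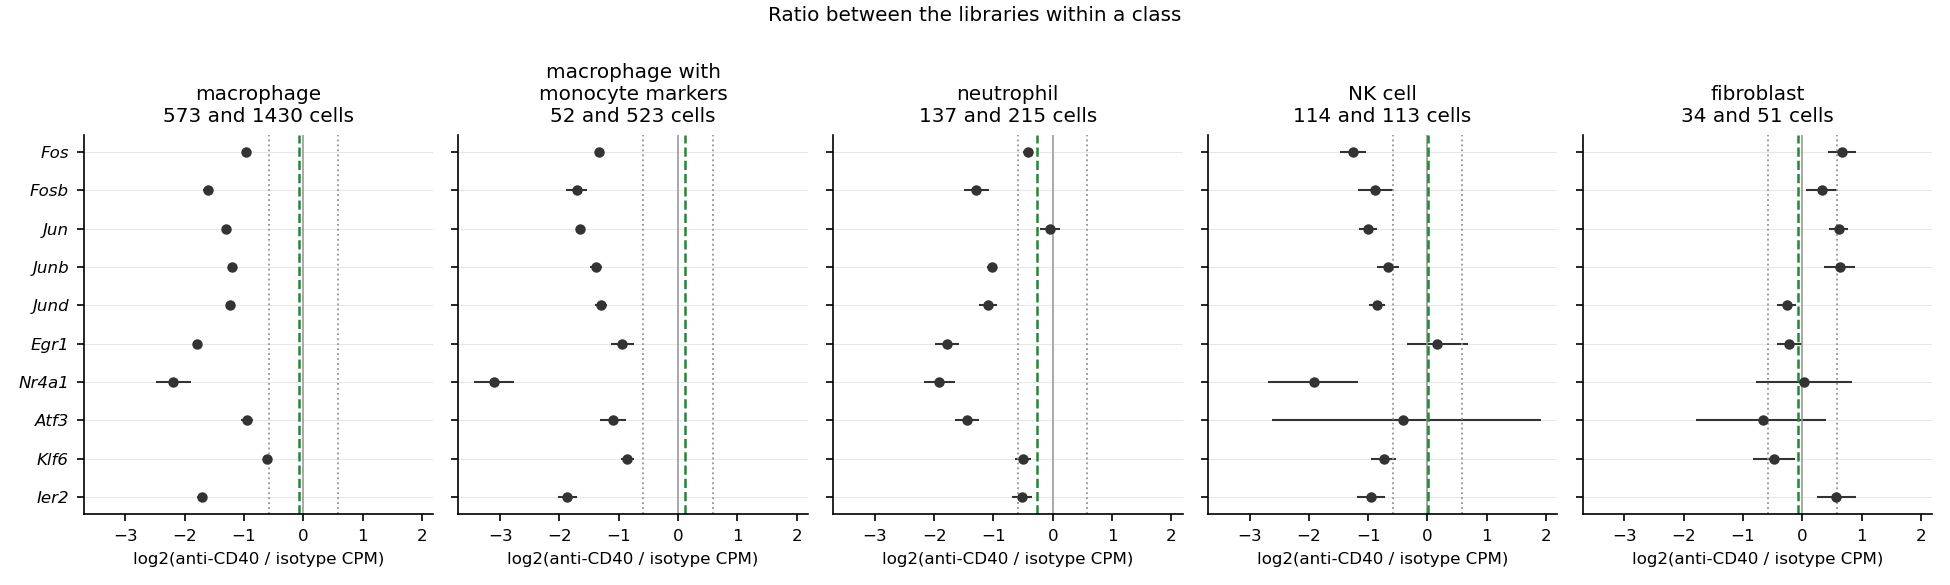
Log2 ratio of the CPM in the anti-CD40 over the isotype library for each gene in 5 gated classes, with 95% counting intervals; dotted lines mark 1.5-fold and the dashed line the median of all genes tested. All 10 points lie left of the dotted line in both macrophage classes, whereas Fos, Jun and Junb lie right of 0 in fibroblast-gated cells.

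The number of the 10 genes found in a cell was counted after every cell was thinned to 1000 UMIs. Macrophage-gated cells held a mean of 4.38 genes in the isotype and 2.84 in the anti-CD40 library, with 10 and 8 shallower cells left out. A count of 5 or more was met by 47.8% (43.6 to 52.0) and 19.1% (17.0 to 21.2) of cells. Cells with 0 of the genes made up 3.73% (2.32 to 5.65) and 9.63% (8.15 to 11.3). With the 1% of cells richest in each gene left out, all 10 genes were still past 1.5-fold lower in this class.

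Neutrophil-gated cells held a mean of 7.04 genes in the isotype and 5.35 in the anti-CD40 library, and 95.2% and 69.0% had 5 or more. No neutrophil-gated cell was without all of them in either library (0 of 126 and 0 of 203, with exact upper bounds of 2.89% and 1.80%). NK-gated cells held 3.59 and 2.41, and fibroblast-gated cells 3.58 and 3.67. Among single genes, Jun had a UMI in 71.9% (68.0 to 75.6) of isotype and 48.0% (45.3 to 50.6) of anti-CD40 thinned macrophage-gated cells, and Klf6 in 56.8% (52.6 to 61.0) and 50.2% (47.6 to 52.8). Without thinning, Jun had a UMI in 91.4% and 88.7% and Klf6 in 91.4% and 93.2%.

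**Figure D4:**
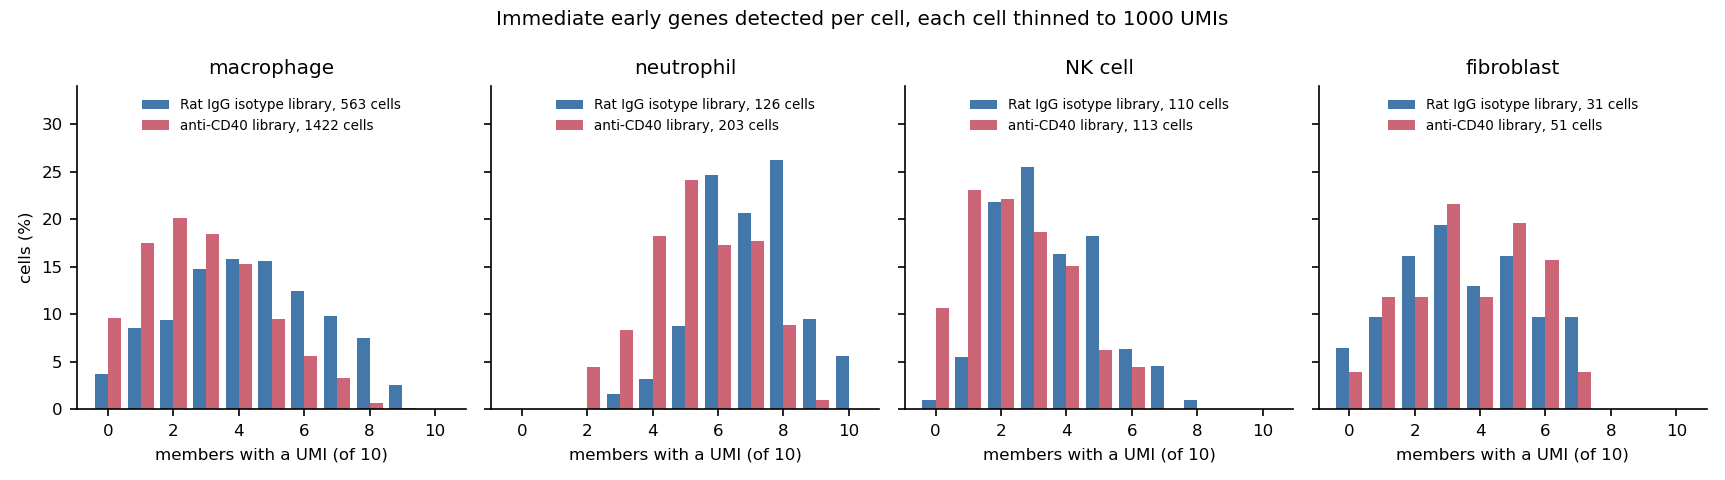
Share of cells (%) by the number of the 10 immediate early genes with a UMI, after thinning to 1000 UMIs, in 4 gated classes of the isotype (blue) and anti-CD40 (red) libraries. The red bars lie to the left of the blue ones in macrophage-, neutrophil- and NK-gated cells and overlap them in fibroblast-gated cells.

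The genes were found together in the same macrophage-gated cells. In isotype cells with a Fosb UMI, 64.2% (56.8 to 71.0) also had Egr1, against 29.5% (25.0 to 34.4) of those without. Fos was found in 74.5% (68.3 to 80.0) of the cells with Egr1 and 47.6% (42.1 to 53.1) of the others. Of 45 pairs of genes in isotype macrophage-gated cells, 44 had 1 gene more often in cells with the other than in cells without it, 33 with intervals that did not overlap. Each pair was counted in 1 direction only, set by the order of the names. In anti-CD40 macrophage-gated cells this left 36 pairs, without those of Nr4a1, which too few cells held. All 36 had such a positive difference, 27 of them with intervals apart. In the other direction Nr4a1 had a UMI in 0.75% of cells with Jund and 0.92% of those without. It was more frequent in cells with each of the other genes, all with overlapping intervals. In neutrophil-gated cells 0 of 37 pairs had intervals apart in either library, in 126 and 203 cells. There were 563 and 1422 macrophage-gated cells, so intervals were wider in the neutrophil-gated ones. In the isotype library Fos and Junb were each in 98.7% of neutrophil-gated cells with Fosb and 100% of those without. Genes this near to the ceiling could hardly differ, so this count cannot be set beside that of macrophage-gated cells. These shares share 1 library, and cells of it are not replicates.

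Across the 12 profiles of a gated class in 1 library with 50 or more cells, the genes differed in how alike their levels were. Against the mean of the other 9, Junb (r = 0.95) and Fos (0.94) were closest and Jund (0.56) and Jun (0.47) farthest. The pair Fos and Junb had an r of 0.93 and the pair Atf3 and Jund 0.07. The profiles come from 2 libraries, and 8 of them are pairs of the same class, so these are descriptions. Of 6056 genes ranked, those whose log2 profile was closest to the member mean included Ddx3x, Ccnl1, Per1, Kdm6b, Hnmt, Klf3 and Kcnj2 (r = 0.93 to 0.95). Kdm6b, a histone H3 demethylase, was at 1166 and 396 CPM in isotype and anti-CD40 neutrophil-gated cells and at 106 and 51.4 CPM in macrophage-gated cells. Hnmt was weaker, at 53.4 and 19.0 CPM in neutrophil-gated and 9.97 and 2.73 CPM in macrophage-gated cells. Kcnj2 was at 72.8 and 44.4 CPM and at 14.2 and 2.67 CPM. Before the log 10 CPM were added, so the r of such weak genes rests largely on the classes where they are higher.

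The 6 fixed sets of related genes were counted in the macrophage-gated cells. Of 21 other immediate early genes 18 were measured, and 12 were past 1.5-fold lower and 1 higher in the anti-CD40 library (median log2 ratio -0.67, against -0.07 for all genes, of which 18.8% were lower and 12.8% higher). Klf4, a zinc finger factor of monocyte differentiation, was at 462 and 114 CPM, 4.06-fold lower (3.81 to 4.33). For Klf2, a factor that restrains inflammatory activation, the levels were 1182 and 391 CPM (3.02-fold, 2.91 to 3.14). Ier3 was 3.67-fold and Ccn1, a secreted matrix protein, 5.97-fold lower. The 1 gene past the fold the other way was Nr4a2, a paralogue of Nr4a1. It was at 6.42 CPM on 29 UMIs and 10.2 CPM on 156 UMIs. Its ratio was 1.58 (1.06 to 2.44), and it was measured only through the library where it was higher. It was named after its value was seen. In neutrophil-gated cells 6 of 14 measured on this list were lower and 2 higher, beside 34.1% and 18.1% of genes. Ier3 was higher there, at 551 and 900 CPM.

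The feedback inhibitors, which shorten or end the response, had 8 of 11 measured genes lower and 0 higher (median -0.70). Zfp36, which binds AU-rich transcripts and speeds their decay, had 588 and 279 CPM and was 2.11-fold lower (2.01 to 2.21), and its relative Zfp36l1 was 1.98-fold lower. Ppp1r15a, a phosphatase subunit of the stress response, was 2.39-fold lower and Socs3, an inhibitor of cytokine signalling, 1.84-fold. By contrast the kinases and factors upstream had 4 of 16 lower and 2 higher (median -0.22), beside 18.8% and 12.8% of all genes. The ETS factor Elk3 (1.82-fold), Map3k8 (1.75-fold), Mapk3 (1.56-fold) and Mapk14 (1.55-fold) were the lower ones, and Mapk9 and Elk1, singled out after their values were seen, the higher ones. Mapk9 had 74 and 438 UMIs and a ratio of 1.74 (1.36 to 2.26). Elk1, on 18 and 98 UMIs, was measured only through the library where it was higher, and its interval of 0.962 to 2.81 includes 1. In cells with both macrophage and monocyte markers, 4 of 12 feedback inhibitors measured were lower and 2 higher, beside 12.9% and 27.2% of genes. Zfp36l1 was higher there, at 130 and 214 CPM. In neutrophil-gated cells 7 of 12 were lower and 1, Socs3, higher at 206 and 560 CPM, beside 34.1% and 18.1% of genes.

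The other bZIP partners had 1 of 13 lower and 1 higher (median -0.11). Batf2, an interferon-inducible partner of Jun proteins, was at 5.32 CPM on 24 UMIs and 50.7 CPM on 778 UMIs, a ratio of 9.53, and Maf, a factor of resident macrophages, at 1049.5 and 365 CPM, 2.88-fold lower (2.77 to 2.99). Mafg (78.2 and 52.4 CPM) and Atf4 (170 and 120 CPM) were within 1.5-fold. The heat shock genes, which also answer digestion, had 4 of 13 lower and 1 higher, beside 18.8% and 12.8% of all genes. Hspb1 was 6.69-fold lower (5.50 to 8.17), and Hspa1a and Hspa1b were 2.85- and 2.95-fold lower, although reads of these near-identical copies may be split between them. Hspa5, a chaperone of the endoplasmic reticulum, was at 703 and 1076 CPM, a ratio of 1.53.

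Among cytokines and chemokines with an early component, 5 of 8 measured were lower and 1 higher (median -0.72), beside 18.8% and 12.8% of all genes. Ccl3 (332 and 130 CPM, 2.56-fold), Cxcl2 (698 and 335 CPM, 2.08-fold) and Il1b (195 and 95.9 CPM, 2.03-fold) were lower. Ccl7, a ligand of Ccr2, was at 117 and 357 CPM, a ratio of 3.04 (2.78 to 3.33). The chemokines therefore did not all go the way of the 10 genes. In cells with both macrophage and monocyte markers, 1 of 7 measured on this list was lower and 4 higher, beside 12.9% and 27.2% of genes. Cxcl2 was higher there, at 208 and 317 CPM, a ratio of 1.52.

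**Figure D5:**
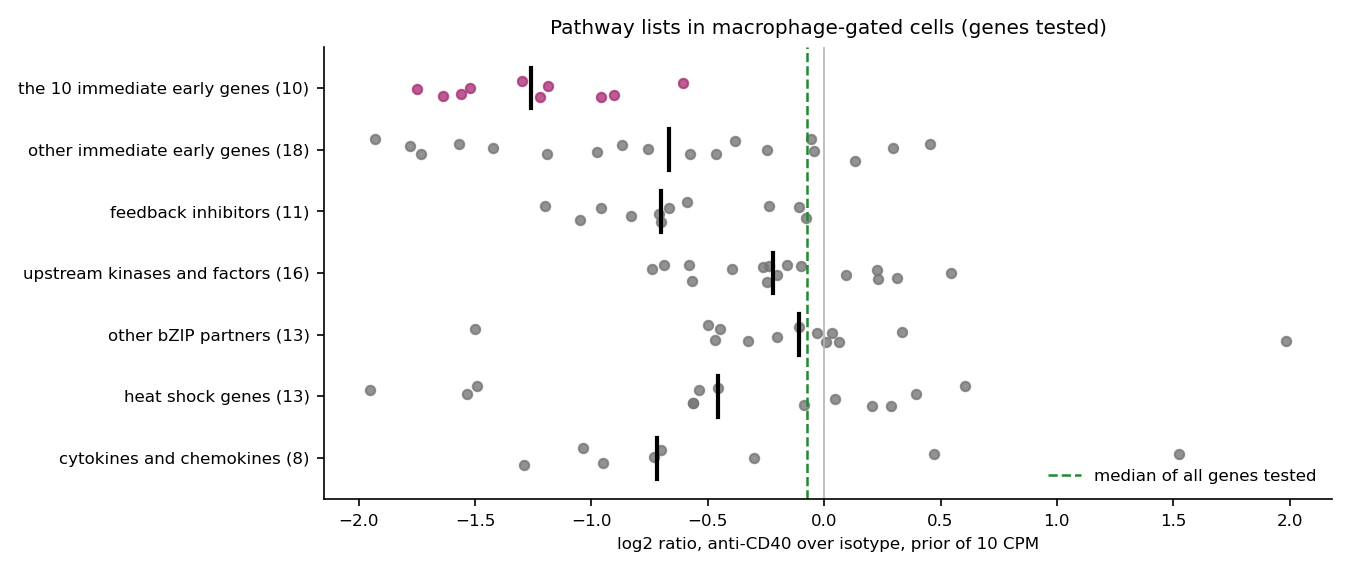
Log2 ratio (anti-CD40 over isotype, 10 CPM added) of each gene measured in macrophage-gated cells, by list, with the number of genes in brackets; black bars are list medians and the dashed line the median of all genes tested. The 10 immediate early genes lie between -1.75 and -0.61, while the bZIP partners and upstream factors centre near the dashed line.

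Barcodes left out for 10% or more mitochondrial UMIs, 2350 in the isotype and 2809 in the anti-CD40 library, also carried the genes. As CPM of the non-mitochondrial UMIs, Jun was at 4027 CPM (3959 to 4096) in these isotype barcodes and 2338 CPM in kept cells, and at 2058 CPM (2019 to 2098) and 1012 CPM in the anti-CD40 library. Atf3 went the other way in the isotype library, at 176 CPM (162 to 191) in high-mitochondrial barcodes and 253 CPM in kept cells. The isotype level was above the anti-CD40 level for all 10 genes in these barcodes too, by 1.10-fold for Klf6 to 3.002-fold for Nr4a1. Their cell types were not gated.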

How the data were processed

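Gene and antibody tag counts were measured in 2 CITE-seq libraries of pooled mouse hearts. The deposited values are raw UMI counts, not normalized, written by Cell Ranger 6.0.1 per the file headers; the submitters' processing notes list Cell Ranger 3, Seurat 3 and the builds mm10 and GRCh38 without roles. Strand use and any doublet removal were not given in the sources used here, and no doublet caller was run; cells reaching several marker lists were set aside as mixed.

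Barcodes were kept at 200 or more genes and a mitochondrial share below 10%. The 15 marker lists and 6 related gene sets were written before the matrices were opened, but with earlier results of these data known, as were the 10 members; the marker share that gates a cell was set after the counts were seen. All 10 members are named, and from each related set the up to 4 measured genes with the largest log2 ratio in macrophage-gated cells, with 10 CPM added. Counts were summed per class and library and given as CPM, with exact Poisson intervals, exact conditional binomial intervals for ratios and Clopper-Pearson intervals for shares, all at 95% and for counting error only. A gene was measured with at least 30 UMIs in the library where it was higher and counted past 1.5-fold. Classes with 50 cells in each library were compared and those with 20 described. Ratios and calls were tested on simulated data. edgeR 4.0.16 (TMM) and DESeq2 1.42.0 (median of ratios) gave alternative scalings, with no test. Python 3.11.15, numpy 2.4.6, scipy 1.17.1 and pandas 2.3.3 were used. The genes with profiles most like the members' were ranked by Pearson's r, and 1 of the 8 ranked highest is not reported here.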

Additional observations from a re-analysis of the deposited data

Results flagged for a closer look

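A few genes stood on opposite sides of 1 in different classes, with both counting intervals away from 1. All 10 genes were lower in anti-CD40 macrophage-gated cells, while in fibroblast-gated cells the ratio of the anti-CD40 to the isotype level was 1.59 for Fos, 1.55 for Junb, 1.53 for Jun, 1.49 for Ier2 and 1.26 for Fosb. In endothelial-gated cells Atf3 had a ratio of 2.72 on 6 and 32 UMIs; it reached the minimum of 30 UMIs only in the library where it was higher, so its direction has little support. These classes held 31 to 51 cells per library. The difference between classes was not tested, since each treatment has 1 library.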

How the results depend on the processing

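In macrophage-gated cells the number of genes past 1.5-fold lower stayed between 8 and 10 under the other gates, filters, scalings and thinning. It did so too under equal weight per cell and removal of the top 1% of cells, and was 7 at a 2-fold limit. The CPM added for log2 ratios, 10 or 1, does not enter this count. Thinning to 1000 UMIs left 8, since Klf6 was within the fold and Nr4a1 had too few UMIs. No gene that was past the fold changed direction in any of these. In cells with both macrophage and monocyte markers, thinning left 6 of 10, with fewer UMIs to count. In NK-gated cells thinning left 5 and the 2-fold limit 3. In neutrophil-gated cells 5 to 7 were lower. The median number of the 10 genes per macrophage-gated cell was 4 in the isotype and 3 in the anti-CD40 library at 1000 UMIs, and 6 and 4 at 2000 UMIs. With every gene that had a UMI as the background, 30.4% of genes were lower in macrophage-gated and 22.8% in macrophage and monocyte marker cells. That share was 47.1% in neutrophil-gated and 34.9% in NK-gated cells. TMM turned the split of all calls in macrophage-gated cells from 18.8% lower and 12.8% higher to 11.3% lower and 19.1% higher, in NK-gated cells from 21.5% and 16.2% to 12.6% and 25.3%, and in cells with both marker lists from 12.9% and 27.2% to 8.26% and 32.4%. No paired analysis was possible because each treatment has 1 library of pooled hearts.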

Other observations

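B cell-gated cells were common in the isotype library (397) and rare in the anti-CD40 library (13), so the 2 were not compared. In the isotype library they held Jund at 2103 CPM (2036 to 2172), Jun at 1964 CPM (1899 to 2031) and Junb at 1030 CPM (983 to 1079), with Atf3 at 26.9 CPM (19.8 to 35.8). Conventional dendritic cell-gated cells of the isotype library (23) held Fos at 1180 CPM (1079 to 1288) and Nr4a1 at 118 CPM (87.4 to 155).

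Kept cells that reached no marker list (466 and 790, with median depths of 833 and 1370 UMIs) held Jun at 2707 CPM in the isotype and 1348 CPM in the anti-CD40 library, while Klf6, at 910 CPM (844 to 979) and 857 CPM (815 to 900), had overlapping intervals.

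The antibody tag for CD69, a surface protein whose gene is itself an early response gene, went opposite to the 10 transcripts. Macrophage-gated cells of at least 1000 UMIs had a median of 1 CD69 tag UMI in the isotype and 4 in the anti-CD40 library, and 63.4% and 92.0% had at least 1. The Armenian hamster isotype control tag had a median of 0 in both, with a UMI in 19.5% and 13.01%. Tag counts were not scaled for tag depth. Within the anti-CD40 library the median CD69 tag was 4 in cells with 0 to 2 of the 10 genes and 5 in cells with 5 to 10. The share with a CD69 tag was 92.1% and 90.8% in these cells, and the share with the control tag 10.7% and 16.2%. In the isotype library the median CD69 tag was 1 in both groups. Cd69 RNA in macrophage-gated cells was at 45.4 and 65.9 CPM, within 1.5-fold.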
